A study of Danio rerio with 6 samples.

Results

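The genes of 8 transcription factors that direct photoreceptor fate, *six7*, *neurod1*, *crx*, *otx5*, *rx1*, *rx2*, *thrb* and *tbx2b*, were examined in sorted cells of the adult zebrafish retina. Their probe sets were found by gene symbol in the annotation of the array, and the set of genes was drawn up with earlier results of these data known. All 8 were present, with 13 probe sets, among 8793 named genes and 15502 probe sets. Retinas of untreated adult fish with the transgene Tg(3.2TalphaCP:EGFP), in which a cone transducin α promoter drives EGFP, were pooled, dissociated and sorted by fluorescence into a GFP-positive and a GFP-minus population. Both populations carried the transgene, and each was measured in 3 biological replicates on 1 Affymetrix zebrafish array per sample. Cone cells are given as tissue in the labels of all samples, also of the GFP-minus cells, which by their population label lacked GFP and could hold any other cell of the dissociated retina. Retinas were freed of pigment epithelium and lens beforehand. Values are log2 expression per probe set after GCRMA, which subtracts background by probe sequence, so that the faintest probe sets collect at a shared lowest value of 2.17.

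Photoreceptors arise from retinal progenitors through a cascade of transcription factors. Homeodomain proteins of the Otx and Rx families act in both rods and cones, the helix-loop-helix factor Neurod1 accompanies the last divisions and maturation of the cells, and a further set of factors directs cone subtypes. In zebrafish, Six7 is required for green cone opsin expression, the β2 form of the thyroid hormone receptor encoded by *thrb* for red cones, and Tbx2b for ultraviolet cones at the expense of rods. Some are also active outside photoreceptors, for example *neurod1* in amacrine cells.

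The labels were set against defining markers. The cone transducin gene *gnat2* lay at 12.6, 12.9 and 13.2 in GFP-positive arrays, against 6.24, 6.21 and 8.91 in GFP-minus arrays; its promoter is the one that drives EGFP. GFP-minus replicate 3 stood apart from the other GFP-minus arrays, with a median level of the 6 measured cone opsin genes of 7.66 against 4.71 and 3.30 in replicates 1 and 2. Rod transcripts were not confined to GFP-minus cells. The median of 9 rod phototransduction genes was 13.3 to 13.7 in GFP-positive arrays and 11.3 to 12.7 in GFP-minus arrays. Of 10 leukocyte markers 8 were lower in GFP-positive cells, and of 6 erythrocyte markers all 6, with summed levels of 11.3 to 12.5 in GFP-positive and 15.4 to 15.8 in GFP-minus arrays for leukocytes and of 11.6 to 12.2 and 15.5 to 15.7 for erythrocytes (log2 of the sum). Of 14 amacrine and ganglion cell markers 5 were lower, *thy1* most (-3.86), and their summed level was 12.89 to 13.03 in GFP-positive and 13.44 to 13.67 in GFP-minus arrays. Of 13 genes listed here as Müller glia markers 3 were higher, *rlbp1a*, *vim* and *gfap*, and 1 was lower, *slc1a3a*. Their summed levels were 14.49 to 15.07 in GFP-positive and 14.23 to 14.85 in GFP-minus arrays. These sums include *rlbp1a* (mean 12.27 against 10.96), and whether it marks glia rather than pigment epithelium was not tested. With single arrays omitted, 3 to 8 of the leukocyte and 4 to 6 of the erythrocyte markers were lower. So were 2 to 4 of the amacrine and ganglion cell markers, and 0 to 4 of the Müller glia markers were higher. The glial count was 0 without GFP-minus replicate 2 or GFP-positive replicate 2 or 3, and scaling to the hybridization controls also left 0 higher. With the replicate number as a block, 1 leukocyte, 3 erythrocyte and 3 amacrine and ganglion cell markers were lower, and 0 glial markers were higher. In bulk samples of this kind, fewer cells of a type and less RNA per cell cannot be told apart. The part of these other cells in the results that follow was not tested.

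Of the 8 factors 3 passed the test, and all 3 were higher in GFP-positive cells: *six7* by 80.6-fold, *thrb* by 9.37-fold and *neurod1* by 2.24-fold (limma with Benjamini-Hochberg adjustment over all probe sets, 3 GFP-positive against 3 GFP-minus arrays). None was lower, and the other 5, *crx*, *otx5*, *rx1*, *rx2* and *tbx2b*, did not pass the test. Over the whole array 2.99% of the probe sets were called higher and 4.69% lower, 7.68% in all. At an unadjusted p under 0.05, 6 of the 8 were higher, against 10.7% of all probe sets. For the same 6 every GFP-positive array lay above every GFP-minus array, which held for 13.9% of all probe sets. The median difference of the 8 genes was 1.43 on the log2 scale, beside 0.01 over all probe sets. The count of 3 was unaltered without GFP-minus replicate 3, and it fell to 1 when GFP-minus replicate 2 or either of the GFP-positive replicates 2 and 3 was left out. Of all 15502 probe sets, 463 were called higher with all arrays. Without GFP-minus replicate 3 these were 256, and in the other 3 settings 126, 143 and 103. The count of the 8 genes was also 1 with the replicate number as a block, beside 194 of all probe sets, and *six7* kept its call there. *neurod1* and *thrb* then had a limma adjusted p of 0.0926 and 0.0897. For *crx*, *otx5* and *rx2* it was 0.062, 0.112 and 0.0588 with the block and 0.224, 0.146 and 0.148 without it. These genes were not called in either fit.

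**Figure D1:**
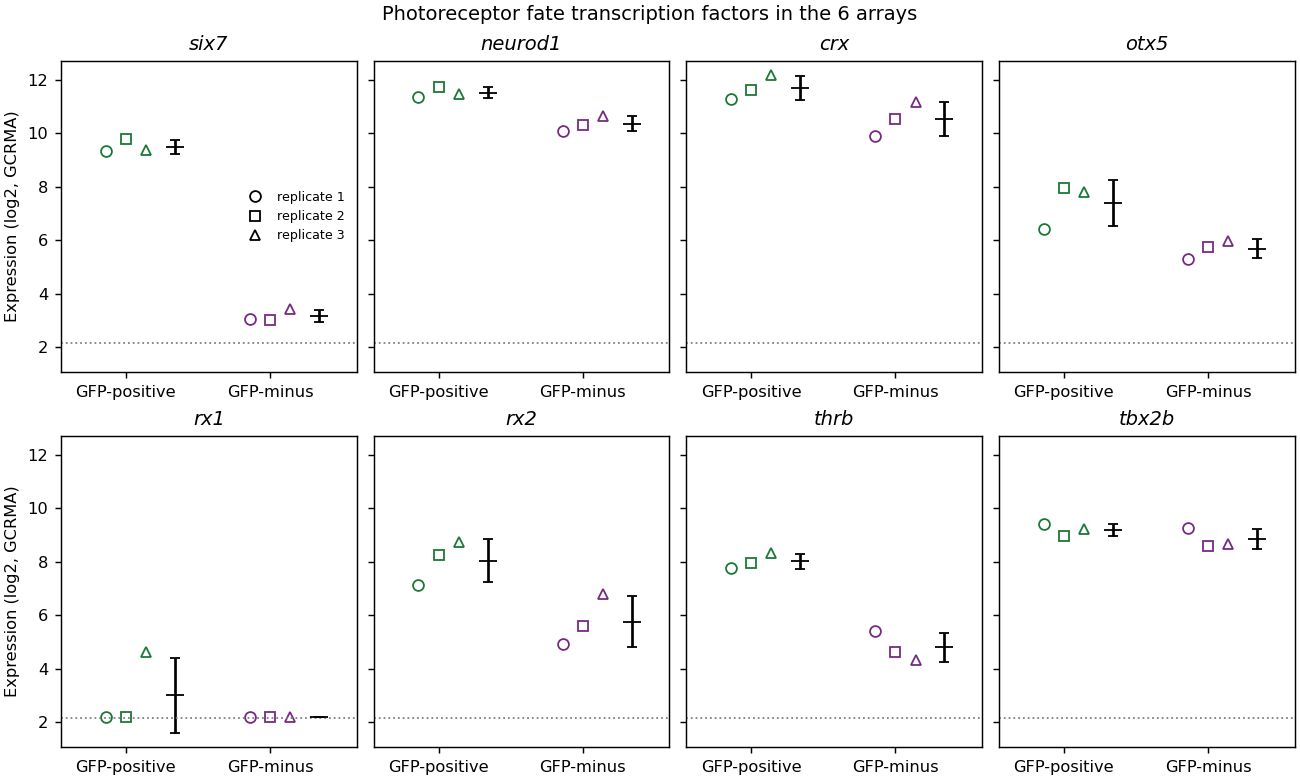
Log2 expression of the 8 transcription factor genes in each array (probe set with the highest mean), with GFP-positive arrays in green on the left and GFP-minus arrays in purple on the right of each panel. Bars are the mean ± SD of 3 arrays and the dotted line is the lowest value, 2.17. The populations overlap for *rx1* and *tbx2b* and are apart for the other 6 genes.

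The cone subtype factor *six7* had the largest difference of the 8. Its brighter probe set gave 9.32, 9.78 and 9.38 in GFP-positive arrays, against 3.05, 3.02 and 3.42 in GFP-minus arrays. No GFP-minus value came within 5 log2 units of a GFP-positive one. The mean was 9.49 ± 0.25 in GFP-positive and 3.16 ± 0.22 in GFP-minus cells (SD, n = 3 arrays each), a difference of 6.33 (95% confidence interval 5.85 to 6.81, standard error 0.18, limma adjusted p = 0.0019). Among all 15502 probe sets this difference ranked 19. Of the 18 probe sets ahead of it, 10 carried a symbol of the cone opsin or cone phototransduction genes listed here. The GFP-minus level was 1.24% of the GFP-positive level. It was low, though no array came within 0.5 log2 units of the lowest value. How far the size of the fold depends on the background step of GCRMA was not tested. The call held in all 12 alternatives, with a difference between 5.59 and 6.56. Among these was the omission of probe sets with a mean below the median. The brighter *six7* probe set passed that filter through its GFP-positive level (percentile 91.1, against 36.8 in GFP-minus arrays). Its call there is no separate support.

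A further probe set annotated as *six7* gave a different picture. It lay at 2.25, 2.17 and 2.23 in GFP-positive arrays and at 2.17 in all 3 GFP-minus arrays. All 6 values were therefore at or near the lowest value, and this probe set gave no level of the gene in either population (difference 0.04, 95% confidence interval -0.02 to 0.10, limma adjusted p = 0.379). The silent probe set was annotated through the RefSeq transcript of *six7*, whereas the accession behind the bright one is not among the RefSeq transcripts of the gene. The naming of the bright probe set thus rests on the annotation of the array, and its probe sequences were not analysed here. With *six7* counted by the silent probe set, 2 of the 8 genes were higher, *thrb* and *neurod1*.

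The thyroid hormone receptor gene *thrb*, whose β2 form acts in red cones, had 4 probe sets. The brightest, and the only one annotated through a RefSeq transcript of the gene, lay at 7.78, 7.97 and 8.33 in GFP-positive arrays, against 5.42, 4.64 and 4.34 in GFP-minus arrays. The lowest GFP-positive value lay more than 2 log2 units above the highest GFP-minus value. The mean was 8.03 ± 0.28 in GFP-positive and 4.80 ± 0.56 in GFP-minus cells (SD, n = 3 arrays each), a difference of 3.23 (95% confidence interval 2.33 to 4.13, standard error 0.34, limma adjusted p = 0.0143). *thrb* was lowest in GFP-minus replicate 3, the array with the most cone opsin signal. The call did not hold when GFP-minus replicate 2 (limma adjusted p = 0.065) or GFP-positive replicates 2 (0.0711) and 3 (0.0699) were omitted in turn, although the difference stayed between 3.0 and 3.54 with any single array left out.

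The other *thrb* probe sets had smaller differences, and none passed the test. The second brightest gave 6.12, 5.88 and 5.22 in GFP-positive arrays and 5.10, 4.33 and 4.29 in GFP-minus arrays, without overlap (difference 1.17, 95% confidence interval 0.22 to 2.11, limma adjusted p = 0.159). Another, whose name marks probes that match several transcripts, gave 3.19, 4.54 and 5.38 in GFP-positive arrays and 2.47, 2.83 and 2.59 in GFP-minus arrays, also without overlap (difference 1.74, 95% confidence interval 0.13 to 3.36, limma adjusted p = 0.207). The highest and lowest GFP-positive arrays exchanged places between these probe sets. The faintest was near the lowest value in all arrays but GFP-positive replicate 1, which lay at 3.37 (difference 0.47, limma adjusted p = 0.511). The files do not pair the probe sets with the β1 and β2 forms of the receptor, so the forms could not be separated.

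The T-box gene *tbx2b*, which in zebrafish favours ultraviolet cones over rods, did not pass the test. Its probe set gave 9.42, 8.97 and 9.22 in GFP-positive arrays, against 9.28, 8.59 and 8.66 in GFP-minus arrays. GFP-minus replicate 1 lay above the GFP-positive replicates 2 and 3, so the populations overlapped. The difference was 0.36 (95% confidence interval -0.28 to 1.00, limma adjusted p = 0.498), an interval of 0.82-fold to 2.00-fold, and its direction turned to -0.38 when all arrays were scaled to the same signal of their hybridization controls. It was 0.58 without GFP-minus replicate 1 and 0.23 without GFP-minus replicate 2, and was not called in either. The ultraviolet opsin gene *opn1sw1*, expressed in the cones that Tbx2b directs, had a difference of 7.94 in the same arrays.

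**Figure D2:**
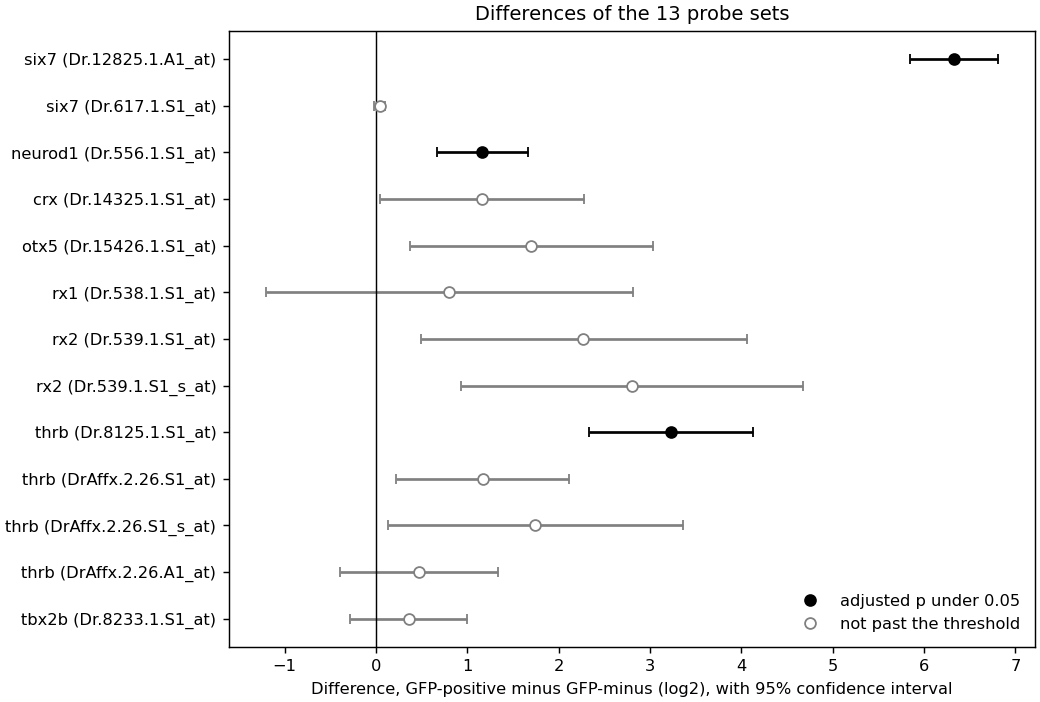
Difference in log2 expression, GFP-positive minus GFP-minus, of all 13 probe sets of the 8 genes, with 95% confidence intervals from limma. Filled points (1 probe set each of *six7*, *neurod1* and *thrb*) passed an adjusted p of 0.05, and the probe sets of *six7* and of *thrb* differ in the size of their differences.

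Of the general photoreceptor factors, 1 was called. *neurod1*, which encodes a helix-loop-helix factor of photoreceptor and amacrine cells, gave 11.3, 11.7 and 11.5 in GFP-positive arrays, against 10.1, 10.3 and 10.6 in GFP-minus arrays. The populations did not overlap, and the GFP-minus cells held 44.6% of the GFP-positive level. The mean was 11.5 ± 0.20 in GFP-positive and 10.4 ± 0.28 in GFP-minus cells (SD, n = 3 arrays each), a difference of 1.16 (95% confidence interval 0.67 to 1.66, standard error 0.18, limma adjusted p = 0.0363). Omitting GFP-positive replicates 1, 2 and 3 in turn gave limma adjusted p = 0.0784, 0.115 and 0.126, and omitting GFP-minus replicates 1, 2 and 3 gave 0.0766, 0.131 and 0.0461, so that only the last kept it. Scaled to the hybridization controls, *neurod1* differed by 0.43 and was not called (limma adjusted p = 0.304).

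The cone-rod homeobox gene *crx*, an Otx-family activator of rod and cone genes, gave 11.3, 11.6 and 12.2 in GFP-positive arrays, against 9.89, 10.5 and 11.1 in GFP-minus arrays. The gap between the lowest GFP-positive and the highest GFP-minus array was narrow, although the populations did not overlap. Its mean difference of 1.16 was of the size of that of *neurod1*, but with a standard error of 0.42 (95% confidence interval 0.04 to 2.28) it was not called (limma adjusted p = 0.224). The level of *crx* rose from replicate 1 to replicate 3 in both populations. With the replicate number as a block it had a limma adjusted p of 0.062, against 0.0926 for *neurod1*, and neither was called. GFP-minus cells held 44.8% of the GFP-positive level of *crx*. It was called with each array centred on its median, at 1.38 (limma adjusted p = 0.0353), a setting that called 6151 of all 15502 probe sets higher.

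The related homeobox gene *otx5*, known in zebrafish from the pineal organ, gave 6.41, 7.95 and 7.80 in GFP-positive arrays, against 5.30, 5.76 and 5.99 in GFP-minus arrays. GFP-positive replicate 1 lay well below the other GFP-positive replicates and only just above the GFP-minus arrays. The difference was 1.70 (95% confidence interval 0.37 to 3.03, standard error 0.50, limma adjusted p = 0.146). Without GFP-positive replicate 1 it was 2.19 and was called (limma adjusted p = 0.0416).

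The retinal homeobox genes *rx1* and *rx2* encode Rx proteins that act in the eye field and later in photoreceptors. *rx2* had 2 probe sets. The brighter gave 7.15, 8.25 and 8.73 in GFP-positive arrays, against 4.92, 5.61 and 6.78 in GFP-minus arrays (difference 2.27, 95% confidence interval 0.49 to 4.06, standard error 0.67, limma adjusted p = 0.148). The other has a name that marks probes matching several transcripts and shares its target with the brighter one, so it is not an independent measure. It gave 6.32, 7.09 and 7.77 in GFP-positive arrays, against 3.69, 3.57 and 5.49 in GFP-minus arrays (difference 2.80, 95% confidence interval 0.93 to 4.68, standard error 0.71, limma adjusted p = 0.106). Neither overlapped between the populations, yet neither was called, and the arrays of each population spread over more than a log2 unit. In both, GFP-positive replicate 1 was lowest and GFP-minus replicate 3 highest of its population. With probe sets left out whose mean over all 6 arrays lay below the median, both were called (limma adjusted p = 0.0273 and 0.0147). Of the 7751 probe sets kept, 775 were called higher. The second *rx2* probe set lay at percentile 71.2 of the GFP-positive and 45.7 of the GFP-minus arrays. It therefore passed the filter through its GFP-positive level, and its call there is no separate support.

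*rx1* was not measured above background in most arrays. Its probe set lay at 2.20 in GFP-positive replicates 1 and 2 and in all 3 GFP-minus arrays, and at 4.62 in GFP-positive replicate 3. The difference of 0.80 (95% confidence interval -1.21 to 2.81, limma adjusted p = 0.612) came from this 1 array and was 0.00 without it. These arrays therefore gave no difference of *rx1* that exceeded the spread between replicates.

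The spread between replicates differed from gene to gene. For *six7*, *neurod1* and *tbx2b* the SD of the GFP-positive arrays was 0.25, 0.20 and 0.22, beside medians of 0.30, 0.29 and 0.31 for the 500 probe sets nearest in level. It was wider for *crx*, *otx5* and *rx2*, at 0.46, 0.85 and 0.81, beside 0.30, 0.31 and 0.30. In GFP-minus arrays, *crx* and *rx2* had an SD of 0.63 and 0.94 beside 0.33 and 0.37, and *thrb* 0.56 beside 0.35. *neurod1* and *otx5* had 0.28 and 0.35 there, beside 0.33 and 0.39. In GFP-positive arrays *thrb* had an SD of 0.28 beside 0.30. An SD of 3 arrays is itself imprecise, and these values are a description.

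The arrays in which these genes were high were not the same for all of them. In the GFP-minus population *neurod1*, *crx*, *otx5* and the brighter probe set of *rx2* were each lowest in replicate 1 and highest in replicate 3, and so was the median of the 9 rod genes. In the GFP-positive population *crx* and both probe sets of *rx2* also rose from replicate 1 to replicate 3. There *neurod1*, *otx5* and the rod median (13.28, 13.70 and 13.66) were lowest in replicate 1 and highest in replicate 2. The cone list medians were lowest in GFP-minus replicate 2, at 3.30 for opsins and 6.01 for phototransduction genes, and highest in replicate 3, at 7.66 and 8.51. The other *rx2* probe set and, within a narrow range, *six7* had this order, and *thrb* was highest in GFP-minus replicate 1. Without GFP-minus replicate 3 the difference was 6.46 for *six7*, 3.0 for *thrb*, 1.31 for *neurod1*, 1.47 for *crx*, 1.85 for *otx5*, 2.78 for *rx2*, 0.80 for *rx1* and 0.27 for *tbx2b*. None of these moved by more than 1.5 times. The part of rod and cone content of the GFP-minus arrays in the members' differences was not tested.

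**Figure D3:**
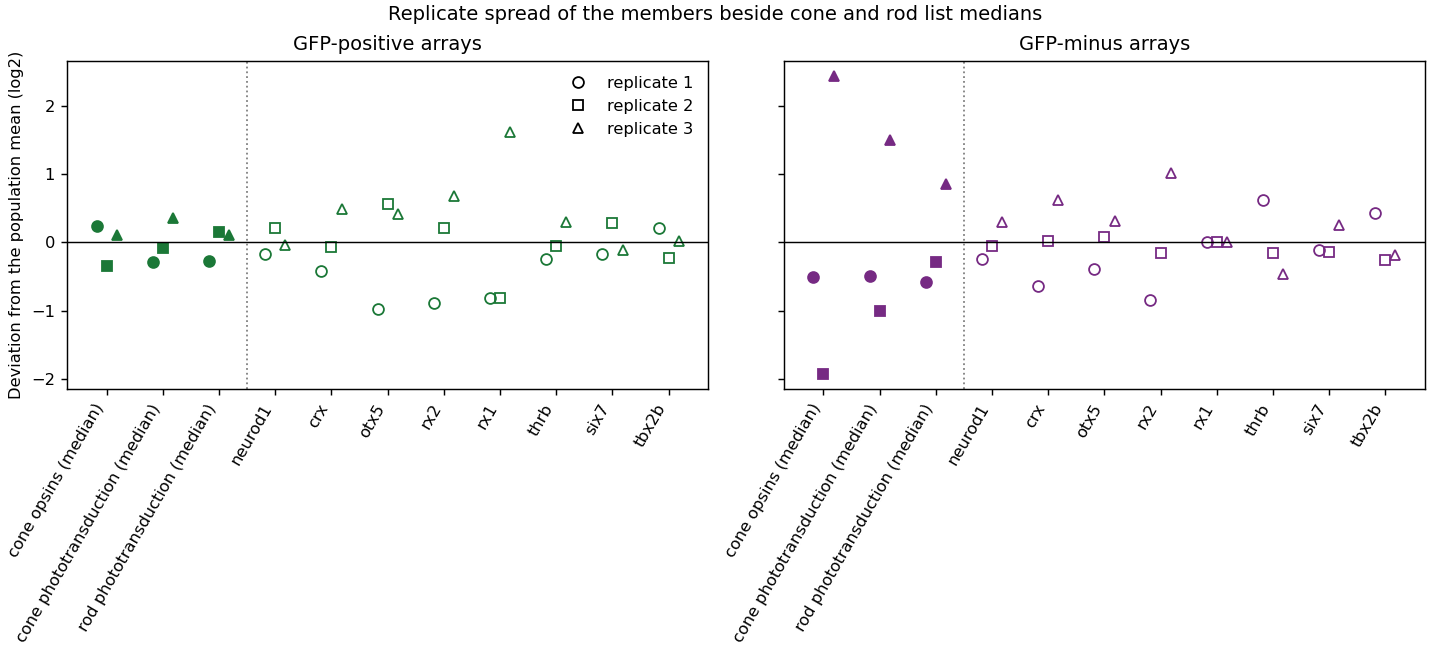
Deviation of each array from the mean of its population (log2), for the medians of the cone opsin, cone phototransduction and rod phototransduction lists (filled) and for the 8 genes (open), with GFP-positive arrays on the left and GFP-minus arrays on the right. In the GFP-minus panel, replicate 3 (triangles) is highest for the 3 list medians and for *neurod1*, *crx*, *otx5*, *rx2* and *six7*, and lowest for *thrb*.

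Other transcription factors of photoreceptor development were described in the same way. Of 31 listed symbols 14 were measured, and the limma test called 1 of them higher, 0 lower and 13 in neither direction. Without adjustment, 4 had a p under 0.05 as higher and 1 as lower. The median difference was 0.29. The called gene was *sall1a*, of the spalt zinc finger family, whose member Sall3 takes part in cone development in the mouse. It lay at 7.21, 5.77 and 7.03 in GFP-positive arrays, against 3.74, 3.34 and 2.98 in GFP-minus arrays (difference 3.32, limma adjusted p = 0.0285). With any single array omitted other than GFP-positive replicate 2, no gene of this list was called higher.

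The rod factor gene *nr2e3*, a nuclear receptor that represses cone genes in rods, gave 11.1, 12.1 and 11.8 in GFP-positive arrays, against 8.66, 9.10 and 10.8 in GFP-minus arrays (difference 2.14, limma adjusted p = 0.173). GFP-minus replicate 3 was highest of its population, as for the rod genes. *samd11*, a gene of photoreceptors, had a difference of 1.81 (limma adjusted p = 0.265), and *rorcb*, of the ROR nuclear receptor family, 1.95 (0.326). *otx2b*, a relative of *crx* and *otx5*, lay at 8.27, 8.98 and 8.79 in GFP-positive arrays, against 8.06, 8.83 and 8.64 in GFP-minus arrays (difference 0.17, limma adjusted p = 0.807). The *otx2a* probe set lay at the lowest value in every array. Lower in GFP-positive cells, though not called, were *rxrga*, a retinoid X receptor gene (-0.99, limma adjusted p = 0.364), and *thraa*, the α thyroid hormone receptor gene (-0.83, 0.118). Differences were small for *mef2d* (0.35), *rx3* (0.23), *neurod4* (0.12) and *insm1b* (0.02). These genes were picked for the text after their values were seen, except *sall1a*.

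Listed relatives of the 8 factors within the sine oculis, Neurod, Otx, Rx, T-box and thyroid, retinoid X and retinoic acid receptor families were next compared. Of 28 measured relatives, 8 of which are also photoreceptor factors of the preceding list, none was called by limma in either direction. Median centring called 13 higher and 1 lower, beside 6151 and 1102 of all 15502 probe sets. The hybridization-control scaling called 5 lower, beside 3251 of all probe sets. The T-box relatives measured in this list were *tbx3a*, *tbx4* and *tbx5a*, and it does not hold *eomesa*, a T-box gene of the next list. At an unadjusted p under 0.05 there were 2 on the higher and 2 on the lower side, and their median difference was 0.00. The highest was *six6a*, at 7.78, 7.30 and 6.74 in GFP-positive arrays, against 6.68, 5.00 and 5.44 in GFP-minus arrays (difference 1.57, limma adjusted p = 0.21). The α receptor gene *thraa* had a difference of -0.83 (limma adjusted p = 0.118), on the opposite side of 0 from *thrb*. The Rx relative *rx3*, which acts early in the eye field, had 0.23 (limma adjusted p = 0.35).

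Transcription factors of other retinal lineages followed. Of 32 measured, limma called 2 lower, 0 higher and 30 in neither direction, with a median difference of 0.00. Without adjustment, 2 passed 0.05 as higher and 3 as lower. Median centring called 9 higher and 1 lower, beside 6151 and 1102 of all 15502 probe sets. The hybridization-control scaling called 9 lower, beside 3251 of all probe sets, and omitting any single array left 1 lower. With dim probe sets left out 2 were higher and 0 lower, beside 775 and 881 of 7751. Quantile normalization called 1 higher and 1 lower, beside 679 and 763, and 1 was higher without GFP-minus replicate 1, beside 257. Highest as deposited were *meis1b* (1.52, limma adjusted p = 0.0805) and *sox11b* (1.05, 0.0517), not called. The 2 called lower as deposited were *eomesa*, a T-box gene of ganglion cells (-1.27, limma adjusted p = 0.00616, near the lowest value in all GFP-positive arrays), and *pax6a*, of amacrine and ganglion cells (-0.40, limma adjusted p = 0.0431). The bipolar gene *vsx1* lay at 9.34, 9.80 and 10.5 in GFP-positive arrays, against 9.36, 10.9 and 10.3 in GFP-minus arrays. This bipolar marker overlapped between the populations (difference -0.30, limma adjusted p = 0.815). All 4 measured bipolar markers had a negative difference, and 1 was called lower, *prkcbb* (-2.90, limma adjusted p = 0.0292). With any single array omitted other than GFP-positive replicate 1, none of the 4 was called lower.

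**Figure D4:**
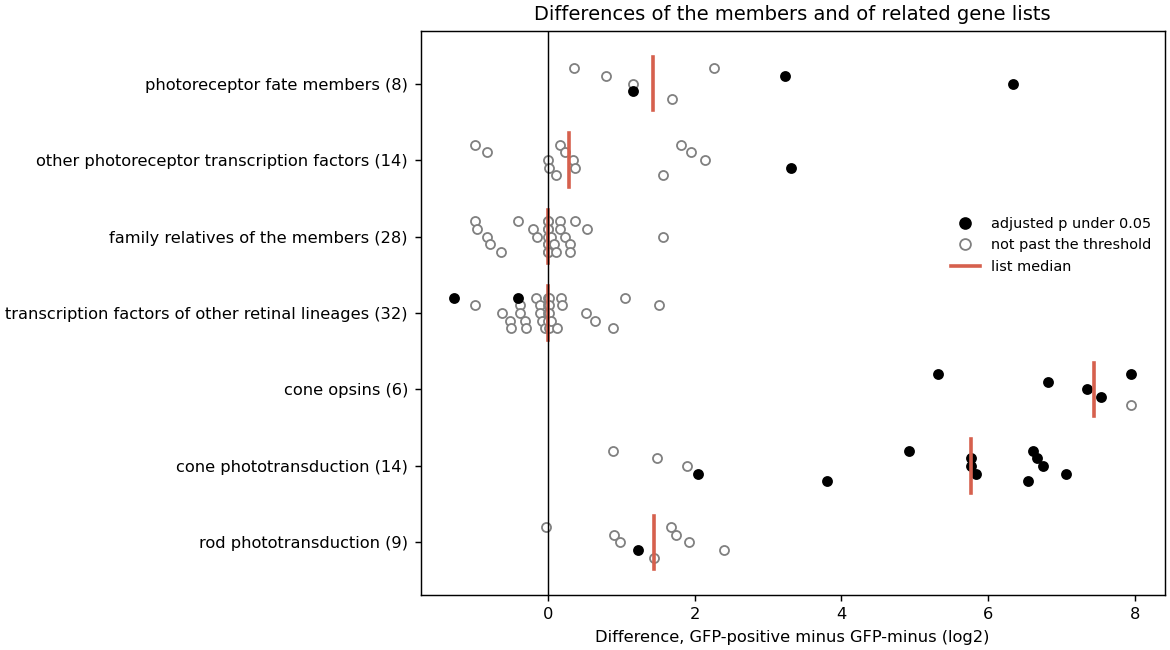
Difference in log2 expression, GFP-positive minus GFP-minus, of the 8 genes, 3 lists of other transcription factors and the cone opsin, cone phototransduction and rod phototransduction lists, with the number measured in brackets. Filled points passed an adjusted p of 0.05 and red bars are list medians, which are 1.43 for the 8 genes and 5.77 for cone phototransduction.

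Opsin and phototransduction genes gave a scale for the differences. Of 6 cone opsin genes 5 were higher (median difference 7.44), of 14 cone phototransduction genes 11 (5.77) and of 9 rod phototransduction genes 1 (1.45), with none lower. Without adjustment, 6, 13 and 8 had a p under 0.05, all higher. These counts moved with single arrays. The opsin count was 0 without any 1 of the GFP-positive arrays, 1 without GFP-minus replicate 1 or 2 and 6 without GFP-minus replicate 3. The cone phototransduction count was 4, 3 and 3 with GFP-positive replicates 1, 2 and 3 omitted in turn, 7 and 6 with GFP-minus replicates 1 and 2 omitted, and 11 with replicate 3 omitted. The rod count was 5 without GFP-minus replicate 3 and 0 with any other array omitted, 6 with dim probe sets left out, 8 with median centring and 0 with the hybridization-control scaling. The difference of *six7* thus lay within the range of the cone opsins (5.31 to 7.94) and that of *thrb* below it. Those of *neurod1*, *crx*, *otx5* and *rx2* lay among those of the rod genes, which ranged from -0.02 to 2.40. The low end of that range was set by *rom1a*, with an SD of 2.46 among GFP-minus arrays and 2.02 among GFP-positive ones. The next lowest rod gene was *gnat1* at 0.91. *rx1* (0.80) and *tbx2b* (0.36) thus lay below every rod gene but *rom1a*. The wider range of the cone phototransduction genes (0.89 to 7.06) also held *six7*, *thrb*, *neurod1*, *crx*, *otx5* and *rx2*. These ranges overlap, so they do not set rod from cone genes by size. Opsin genes of the cones that Six7 and the β2 receptor direct are green and red. Green *opn1mw1*, *opn1mw4* and *opn1mw2* had differences of 5.31, 7.54 and 7.94 (limma adjusted p = 0.0148, 0.0275 and 0.0748, the last not called). Red *opn1lw1* had 7.34 (limma adjusted p = 0.0452).

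Genes with the most similar array profiles were listed for each factor by the root mean square difference between profiles, each profile being the 6 log2 values less their mean. With only 6 arrays, which share populations and replicates, this is a description. Closest to *six7* were *rcvrn3*, a recoverin gene (root mean square difference 0.39, difference between populations 6.54), *zgc:195245* (0.46) and *ptpdc1b* (0.50). Closest to *thrb* were *bokb*, a Bcl-2 family gene (0.32), *si:ch73-141c7.1* (0.38) and *pfkfb1*, an enzyme gene of glycolytic control (0.45). These distances were small beside the size of the profiles themselves, at 3.17 for *six7* and 1.65 for *thrb*.

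Closest to *neurod1* were the transducin β gene *gnb1b* (0.09), *tp53inp1* (0.11) and *rlbp1a*, a retinaldehyde-binding protein gene (0.11). Closest to *crx* were *htt* (0.07), *tmem9* (0.14) and *ndufaf2* (0.14), and closest to *otx5* were *myclb*, *dnajc12* and *pole4* (0.15 each). *rx2* was followed by *alpl* (0.16), *usp21* (0.19) and *si:ch211-137a8.2* (0.21), and *tbx2b* by *gpr108*, *cux1a* and *sltm* (0.07 each). *rx1*, bright in a single array, had *dlat* (0.31), *spata13* (0.34) and *ppp1r3c2b* (0.35) nearest, beside a profile size of 0.90. *rcvrn3* is also in the cone phototransduction list, *gnb1b* in the rod list and *rlbp1a* in the Müller glia list.

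**Figure D5:**
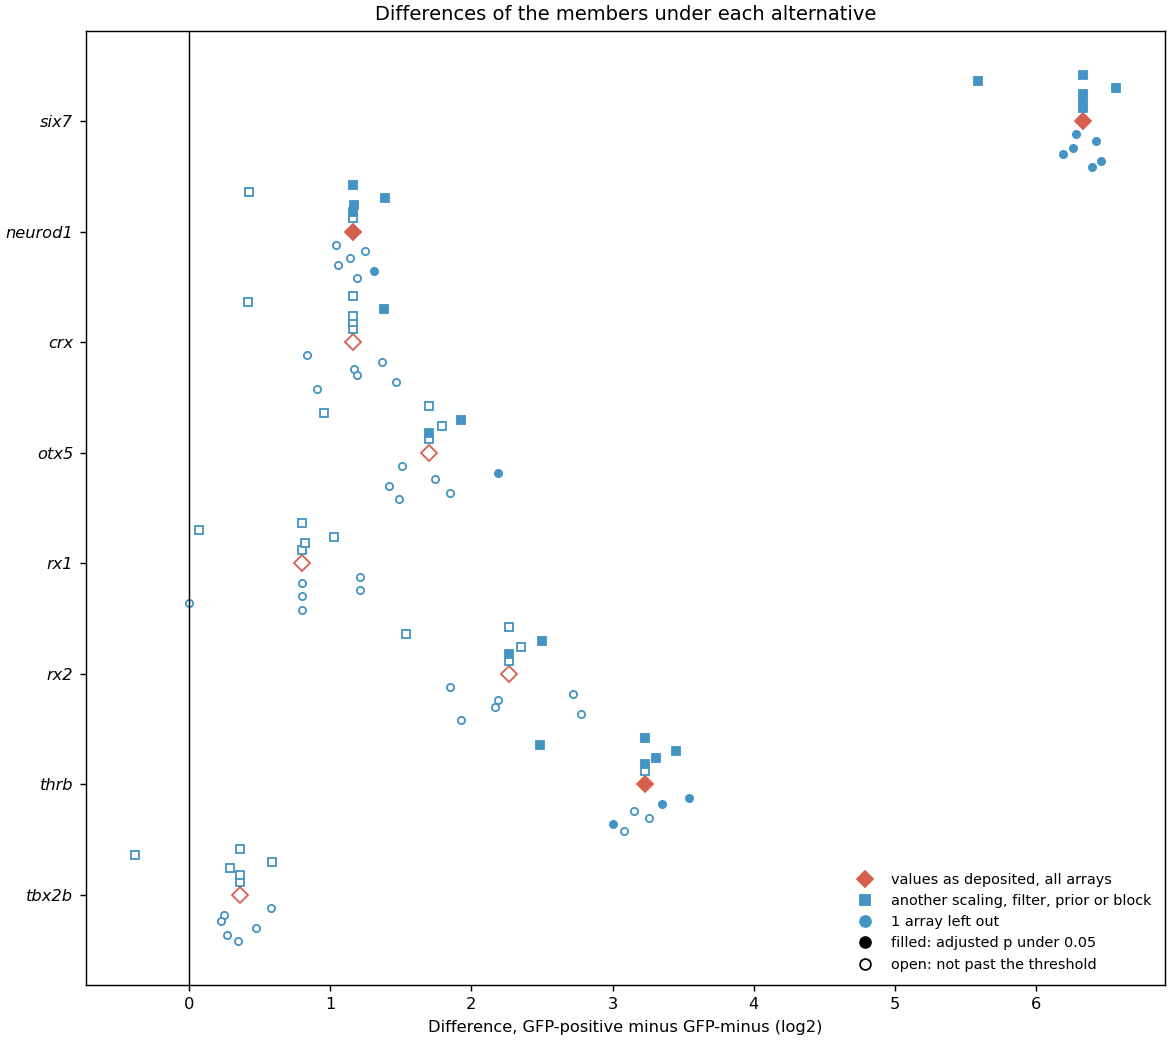
Difference in log2 expression, GFP-positive minus GFP-minus, of the 8 genes as deposited (diamonds), under other scalings, filters, priors or the replicate block (squares) and with 1 array left out (circles), filled where the adjusted p was under 0.05. *six7* is filled in every setting, *tbx2b* and *rx1* in none, and *tbx2b* crosses to -0.38 under the hybridization-control scaling.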

How the data were processed

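Sorted GFP-positive and GFP-minus cells of adult zebrafish retina (3 arrays each) were hybridized to Affymetrix zebrafish arrays after amplifying labelling. The values the authors deposited are log2 intensities, 1 for each probe set and array. GCRMA is named in the submitters' processing notes, without a version. Between 10.3% and 11.7% of the probe sets of an array lay at the lowest value. Arrays have no read depth, and their number limits the precision. Replicates are biological by their labels.

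Gene names came from the platform annotation (1 symbol updated). Of 15617 probe sets, 115 controls were left out. Of the 15502 tested, 10795 had 1 symbol, 135 several and 4572 none. The comparison of the populations used the linear models of limma 3.58.1 (lmFit, eBayes, two-sided) in R 4.3.3, with Benjamini-Hochberg adjustment across all 15502 and calls at 0.05, and the procedure was tested on simulated data. A gene with several probe sets is counted by the one with the highest mean. Named are all probe sets of the 8 genes, called genes of the other transcription factor lists, up to 4 genes of each target list, defining markers, and the 3 nearest array profiles per gene. Others named were chosen after their values were seen. The members and lists were chosen with earlier results of these data known. No set test was run. Alternatives were a replicate block, leaving out dim probe sets (only means above the median kept), quantile normalization, median centring, scaling to hybridization controls, a trended robust prior, any probe set of a gene, and leaving out each array. Counting *six7* by its RefSeq-matched probe set was chosen after seeing the data. Probe sequences and genome positions were not analysed here. Figures were drawn with matplotlib 3.10.9.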

Additional observations from a re-analysis of the deposited data

How the results depend on the processing

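The call of *six7* held in all 12 alternatives (difference 5.59 to 6.56, limma adjusted p at most 0.0343), and *tbx2b* was called in none of 12 and *rx1* in none of 11, since *rx1* was not tested with dim probe sets left out. Median centring moved all differences by 0.225 and the hybridization-control scaling by -0.737, and higher probe sets made up 84.8% and 5.66% of those called, against 38.9% as deposited. The number of the 8 genes called higher was 3 as deposited, beside 463 of all 15502 probe sets. It was 5 with dim probe sets left out, beside 775 of 7751, and 6 with median centring, beside 6151 of 15502. It was 1 with the replicate number as a block, beside 194 of 15502, and 1 to 3 with single arrays left out, beside 103 to 323. None was lower in any setting. With dim probe sets left out *otx5* (1.70) and *rx2* (2.27), and with median centring *crx* (1.38), *otx5* (1.93) and *rx2* (2.50), were called. The brighter *six7* probe set, at percentile 91.1 of the GFP-positive and 36.8 of the GFP-minus arrays, passed the dim filter through its GFP-positive level. Its call there is no separate support. The brightest *thrb* probe set lay at percentile 80.5 of the GFP-positive and 50 of the GFP-minus arrays. It lay clearly above the middle only in GFP-positive arrays, so its call with the dim filter is no separate support either. Under the hybridization-control scaling *neurod1* (0.43) lost its call, and *tbx2b* (-0.38) and the fainter probe set of *six7* (-0.69) and the faintest of *thrb* (-0.26) changed sign. Same-numbered arrays deviated together in 2 of 3 pairs (r = 0.555, 0.0589 and 0.266 across probe sets for replicates 1, 2 and 3). Among unlike numbers, GFP-positive 2 with GFP-minus 3 (r = 0.357) and GFP-positive 3 with GFP-minus 2 (0.273) also did, and the rest were negative. Deviations from a mean of 3 arrays cancel within a population, so a positive r for some pairs forces negative values for others. The labels do not say whether a number marks a shared pool. Pairing was thus left undecided, and the main test did not use it. With the replicate block, *neurod1* (1.16, limma adjusted p = 0.0926) and *thrb* (3.23, 0.0897) were not called and 194 probe sets were called higher and 256 lower, against 463 and 727. The block lowered the limma adjusted p of *crx* (0.224 to 0.062), *otx5* (0.146 to 0.112) and *rx2* (0.148 to 0.0588), without a call. The block also left 0 of 6 cone opsin, 5 of 14 cone phototransduction and 0 of 9 rod phototransduction genes called higher. With single arrays left out the differences ranged from 1.04 to 1.31 for *neurod1*, 1.42 to 2.19 for *otx5*, 3.0 to 3.54 for *thrb* and 0.23 to 0.58 for *tbx2b*. The causes of these changes were not tested, apart from the shift that each scaling adds by construction. Signal over background limits *rx1*, the GFP-minus level of *six7* and the fainter *thrb* probe sets.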
